A study of Arabidopsis thaliana with 9 samples.

Results

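FLC, AGL31, FT and FUL are 4 genes that set the time of flowering in Arabidopsis thaliana, and their transcript levels were examined in seedlings with altered expression of SRT1. They were found by gene identifier among the 2507 genes that the 4 deposited lists hold (FLC is AT5G10140, AGL31 is AT5G65050, FT is AT1G65480, and FUL is AT5G60910, written AGL8 in the files). All 4 were present, in 5 entries. SRT1 encodes a nuclear sirtuin, an NAD-dependent protein deacetylase. The libraries came from seedlings 14 days old (leaf, stem and root together) of an overexpression line (OX, line OX-SRT1-1), an RNA interference line (RNAi, line RNAi-1) and wild type (Col), with 3 libraries per group and 9 in all. The line names are those of the growth protocol in the labels, and the deposited lists head the columns of these lines ox5 and r5, which the labels do not explain. Each transgenic genotype was represented by 1 line, so the effect of the construct cannot be told apart from that of the line. The plants grew on 1/2 MS medium in a climate chamber.

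Flowering begins when the shoot meristem stops making leaves and starts making flowers. FT encodes florigen, a small mobile protein made in leaf veins under long days that acts with the bZIP factor FD at the shoot tip. FLC encodes a MADS-domain transcription factor that represses FT and SOC1 until long cold silences it, and AGL31, also called MAF2, encodes a close relative of FLC that represses flowering as well. FUL encodes a MADS-domain factor of the AP1 clade, which acts in meristem identity downstream of FT and later in fruit growth.

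Each deposited list gives 1 FPKM value per group and gene (sequenced fragments per kilobase of transcript, divided by library size). Values per library were not analysed here, so no SD, interval or new test is given, the depth is unknown, and whether a gene differed was taken from the q-values of the authors' deposited table. Genes under a 2-fold difference do not appear in the lists, and the largest q-value in any list was 0.0496. A gene missing from a list is therefore not shown to be unchanged, nor to differ by under 2-fold. The labels do not tie the 3 libraries of a group to separate cultures, so the deposited p-values may measure technical spread only. The smallest deposited p-value, 5e-05, was shared by 607 of 832 genes lower and 860 of 1134 genes higher in OX. In the RNAi lists it was shared by 482 of 749 and 233 of 377 genes. The q-values that belong to it, 0.00015 in OX and 0.0002 in the RNAi lists, are thus a floor and do not rank genes. FPKM is a level in the whole seedling, where fewer cells of a type and less RNA per cell cannot be told apart.

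The 2 RNAi lists conflict in how their titles, column labels and values go together, which bears on the direction of AGL31, FT and FUL. The list whose title says lower in RNAi has RNAi as the label of its first column and wild type as that of its second, yet its values are higher in the first. The list whose title says higher in RNAi carries the labels in the other order, with higher values in the second column, so that its title and labels say the same. The second column of the RNAi lists followed the wild-type column of the OX lists closely. Over 584 genes found in both comparisons, the median log2 ratio of the OX-list column over the RNAi-list column was 0.08, and 572 genes lay within 0.1 of it, against 82 genes for the ratio of the first columns. AGL31 had 4.0 FPKM in the OX list and 3.81 FPKM in the RNAi list in that column, a log2 ratio of 0.07. The second column is therefore called the shared column, and RNAi values are given as the first column relative to it.

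SRT1 itself had 6.05 FPKM in OX and 1.75 FPKM in the shared column, but in the RNAi list it had 2.37 FPKM in the first column, labelled RNAi, and 0.419 FPKM in the shared column. This is 5.67-fold higher in the column labelled RNAi and goes against that label. SRT1 does not follow the shared column either, with 1.75 FPKM there in the OX list and 0.419 FPKM in the RNAi list, a log2 ratio of 2.06 against the median of 0.08. Its RNAi entry in the authors' deposited table carries a log2 ratio of -2.37 (second over first column), whereas the FPKM values of the entry give 2.5 for first over second. It was the only one of 3092 entries where these sizes differed by more than 0.001, so the SRT1 entry is irregular and cannot decide between the readings. Every RNAi direction below is subject to this conflict. If the list titles held, the shared column would be RNAi, and the OX values would then not be relative to wild type either. Some seedling tissue markers were listed. The leaf gene LHCB1.1, listed in OX only, had 5670 FPKM in OX and 12900 FPKM in the shared column, 2.27-fold lower. The leaf gene RBCS1A was in no list. The 3 root markers CASP1, CASP5 and LRX1 were lower than in the shared column in both comparisons, CASP1 being 5.75 FPKM in OX and 16.6 FPKM in the shared column. CASP5 and LRX1 had 1.22 and 1.36 FPKM in the shared column of the OX lists, so their folds rest on low values. Whether the share of root tissue has a part in the flowering gene values was not tested.

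Stretches of 250 bases upstream of the annotated gene start are shown for FLC, the member that was lower in OX, and for AGL31 and its neighbour MAF3, which were higher in both comparisons. They are from the RefSeq annotation and genome of TAIR10.1, printed 5′ to 3′ on the strand of the gene. FLC lies on the minus strand (window chr5:3179449-3179698), AGL31 on the plus strand (chr5:25982004-25982253) and MAF3 on the plus strand (chr5:25987059-25987308). Capitals mark the CACGTG motif (G-box) in FLC and, in AGL31 and MAF3, the longest run of bases that their windows share.
FLC: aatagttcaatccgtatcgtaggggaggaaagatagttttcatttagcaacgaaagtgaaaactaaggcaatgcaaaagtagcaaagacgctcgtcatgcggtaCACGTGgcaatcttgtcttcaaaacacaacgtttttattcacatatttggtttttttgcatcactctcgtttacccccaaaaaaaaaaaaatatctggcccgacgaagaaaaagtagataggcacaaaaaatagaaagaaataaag
AGL31: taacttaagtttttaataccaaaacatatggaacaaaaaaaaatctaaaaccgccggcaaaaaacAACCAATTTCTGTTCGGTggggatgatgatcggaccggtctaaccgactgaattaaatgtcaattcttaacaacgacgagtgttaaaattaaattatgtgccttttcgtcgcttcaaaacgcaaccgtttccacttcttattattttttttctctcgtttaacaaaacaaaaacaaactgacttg
MAF3: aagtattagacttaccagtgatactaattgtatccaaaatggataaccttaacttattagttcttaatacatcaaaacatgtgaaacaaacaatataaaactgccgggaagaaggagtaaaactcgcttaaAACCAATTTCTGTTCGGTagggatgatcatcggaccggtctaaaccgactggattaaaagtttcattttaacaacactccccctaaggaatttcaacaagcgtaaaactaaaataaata

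The run shared by AGL31 and MAF3 is 18 bases long, begins 185 bases before the start of AGL31 and 119 bases before that of MAF3, and holds the motif CCAAT. It was found, on either strand, in 3 of 27443 windows of protein-coding genes, those of AGL31, MAF3 and their close relative MAF1. The run does not set the listed genes apart. AGL31 shares longer or equal runs with relatives that were in no list, 35 bases with MAF1 and 18 bases with MAF4, and MAF3 shares 20 bases with MAF1. FLC and AGL31 share a run of at most 10 bases. The motif CCAAT was present in the windows of AGL31, MAF3 and FUL and in 46% of all windows, searched on both strands, and not found in those of FLC and FT. CACGTG was present in the FLC window alone among these 5 genes, 146 bases before the start, and in 6.49% of all windows. The CArG box, which MADS-domain proteins bind, was in none of the 5 windows (0 of 5) and in 2.52% of all windows. A match or its absence describes these letters only, and the motifs did not overlap each other in these windows.

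FLC was lower in OX. It had 3.81 FPKM in OX and 8.62 FPKM in the shared column, 2.26-fold lower, a log2 ratio of -1.18 (q-value 0.00015 in the authors' deposited table). FLC had the highest shared-column level of the 4 genes. The OX lower list held 2.6% of the 27444 annotated nuclear protein-coding genes, a denominator taken from RefSeq and not the number of genes the authors tested, and FLC was the only one of the 4 members in it. By fold FLC ranked 566 of 832, with 67.9% of the list showing a larger fold. The deposited locus of FLC is on chromosome 5, 3173497 to 3179448 in TAIR10 coordinates counted from 1, and spans 5952 bp with an intron of up to 3493 bp. The genes of this list were mostly short, with a median span of 1327 bp, and 8 of its 745 nuclear genes were longer than FLC. FLC was in neither RNAi list.

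An antisense long non-coding RNA gene, AT5G01675, overlaps the whole of FLC in the annotation. Whether reads were counted by strand is not given in the sources used here, so sense and antisense transcripts of FLC cannot be told apart in these values. Of the 3 annotated genes on each side of FLC, AT5G10130, which encodes a protein of the pollen Ole e 1 allergen and extensin family, was listed. It had 0.936 FPKM in OX and 2.40 FPKM in the shared column, 2.57-fold lower (q-value 0.0008 in the authors' deposited table). In the RNAi list it had 0.517 FPKM in the first column and 2.26 FPKM in the shared column, 4.37-fold lower. The protein-coding gene on the other side of FLC, AT5G10150, was in no list.

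AGL31 was the only one of the 4 genes listed in both comparisons, and it was higher than the shared column in each. In OX it had 16.4 FPKM, against 4.0 FPKM in the shared column, 4.10-fold higher with a log2 ratio of 2.03 (q-value 0.00015 in the authors' deposited table). The OX higher list held 3.8% of annotated nuclear protein-coding genes, AGL31 being the only one of the 4 members in it. It ranked 75 of 1134 by fold, and its level in OX was above that of most genes of the list, since 8.91% had a higher one. In the RNAi list AGL31 had 8.69 FPKM in the first column, labelled RNAi, and 3.81 FPKM in the shared column, 2.28-fold higher with a log2 ratio of 1.19 (q-value 0.0002 in the authors' deposited table). The title of that list calls the same entry lower in RNAi. There it ranked 200 of 377.

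The OX value of AGL31 was 1.88 times the first-column value of the RNAi list, and its fold over the shared column was 1.80 times as large. The 2 comparisons share the second column, labelled wild type in the OX lists, and this difference was not tested, since each list has 1 value per group. AGL31 is on chromosome 5, 25982254 to 25986326, a span of 4073 bp, against a median of 3234 bp in the OX higher list, where 34% of nuclear genes were longer.

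**Figure D1:**
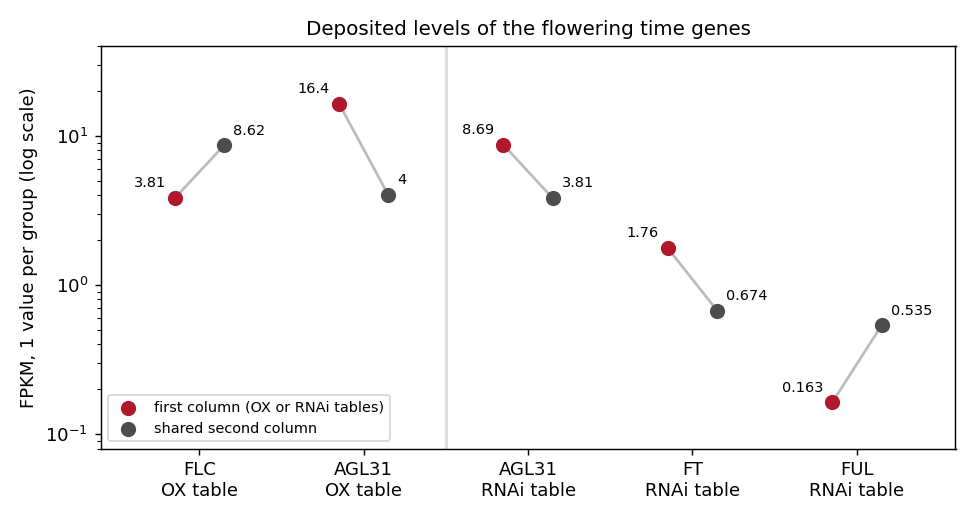
Deposited FPKM (log axis) of FLC and AGL31 in the OX lists and of AGL31, FT and FUL in the RNAi lists, with the first column in red left of the shared column in grey, 1 value per group and no error. FLC and FUL are below the shared column, and AGL31 and FT above it.

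MAF3, the next gene downstream of AGL31 on chromosome 5 and also a MADS-domain repressor of flowering, moved the same way in each comparison. It had 9.17 FPKM in OX and 3.15 FPKM in the shared column, 2.91-fold higher (q-value 0.00015 in the authors' deposited table). In the RNAi list it had 6.15 FPKM in the first column and 2.99 FPKM in the shared column, 2.06-fold higher (q-value 0.0002). MAF4 and MAF5, the next 2 genes of this tandem array, were in no list, nor was MAF1 on chromosome 1. The coding sequences of AGL31 and MAF3 are 93.6% identical over 591 aligned bases, while FLC and AGL31 are 75.8% identical over 586. Of the 50-base windows of the AGL31 transcript, 13, or 1.27%, are identical to a window of the MAF3 transcript (longest annotated coding isoform of each). Read length is not given in the sources used here, so the split of reads between AGL31 and MAF3 remains uncertain.

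Likeness to AGL31 was measured as the Euclidean distance over the 2 log2 ratios, among 583 other genes found in both comparisons. The nearest was AT3G46370, which encodes a leucine-rich repeat protein kinase family protein, at a distance of 0.042 with log2 ratios of 2.06 in OX and 1.16 in the RNAi list. The next were AT2G43465, an RNA-binding ASCH domain protein gene, at 0.061, and SR34B, a splicing factor gene, at 0.114. MAF3 came at rank 90, at a distance of 0.516. FLC, FT and FUL have a single ratio each, so no likeness could be measured for them.

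**Figure D2:**
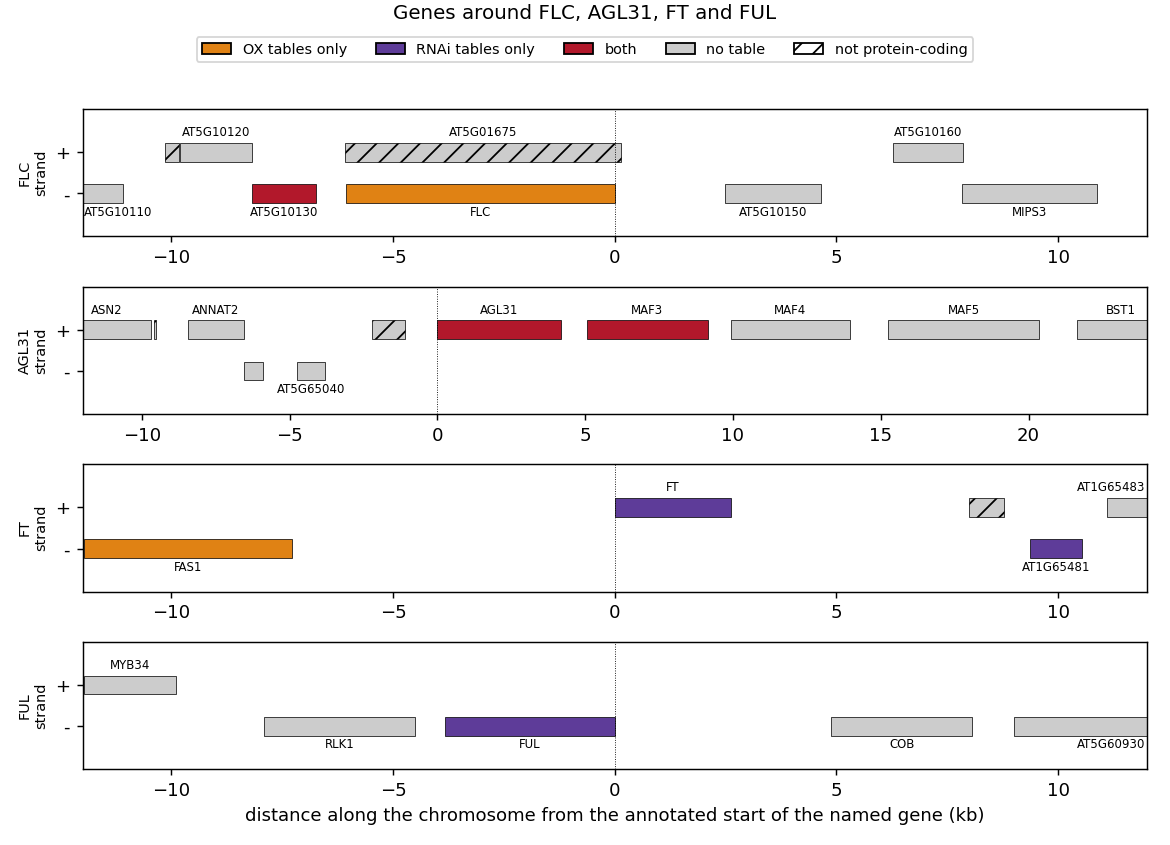
Annotated genes around FLC, AGL31, FT and FUL by distance from the start of the named gene (kb, 1 panel per gene, plus strand above minus strand), coloured by the deposited tables that list them. AGL31 and MAF3 lie side by side in both tables, with MAF4 and MAF5 beyond them in none, and the antisense gene AT5G01675 covers FLC.

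FT was higher than the shared column in the RNAi list. It had 1.76 FPKM in the first column, labelled RNAi, and 0.674 FPKM in the shared column, 2.61-fold higher with a log2 ratio of 1.38 (p = 0.001 and q = 0.003 in the authors' deposited table of all listed genes). The list's own title calls FT lower in RNAi. FT ranked 118 of 377 by fold, and 63.9% of the list had a higher level than its 1.76 FPKM. Of annotated nuclear protein-coding genes, 1.25% were in this list, which held FT and AGL31 of the 4 members. FT is on chromosome 1, 24331428 to 24333934, with 4 exons and a span of 2507 bp, close to the list's median of 2371 bp. FT was in neither OX list.

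Among the 3 annotated genes on each side of FT, FAS1 and AT1G65481 were listed. FAS1, a subunit of chromatin assembly factor 1, had 2.28 FPKM in OX and 0.996 FPKM in the shared column, 2.29-fold higher (q-value 0.00015 in the authors' deposited table). AT1G65481, an uncharacterized protein gene, had 0.184 FPKM in the first column of the RNAi list and 1.25 FPKM in the shared column, 6.77-fold lower (q-value 0.021). FT and AT1G65481 thus stood on opposite sides of the shared column, and the fold of AT1G65481 rests on low values.

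FUL was lower than the shared column in the RNAi list, at the lowest level of the 4 genes. It had 0.163 FPKM in the first column, labelled wild type in this list, and 0.535 FPKM in the shared column, labelled RNAi, 3.28-fold lower with a log2 ratio of -1.71. The deposited p-value was 0.01015 and the q-value 0.023, the largest q-value of the 5 entries. The title and the labels of that list both call FUL higher in RNAi. Of the list, 98.1% had a higher level than FUL, so its fold rests on low values. FUL ranked 208 of 749, and the list held 2.38% of annotated nuclear protein-coding genes, with FUL the only member. It is on chromosome 5, 24502482 to 24506143, a span of 3662 bp against a median of 1564 bp. BASL, a polarity protein of the stomatal lineage and a neighbour of FUL, had 1.27 FPKM in OX and 0.450 FPKM in the shared column, 2.82-fold higher. It had 0.948 FPKM in the first column of the RNAi list and 0.429 FPKM in the shared column, 2.21-fold higher. In all, 5 of the 24 neighbours of the 4 genes were listed in some table. All 5 are among the 21 that are protein-coding, and 8.31% of annotated nuclear protein-coding genes were in at least 1 of the 4 lists.

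**Figure D3:**
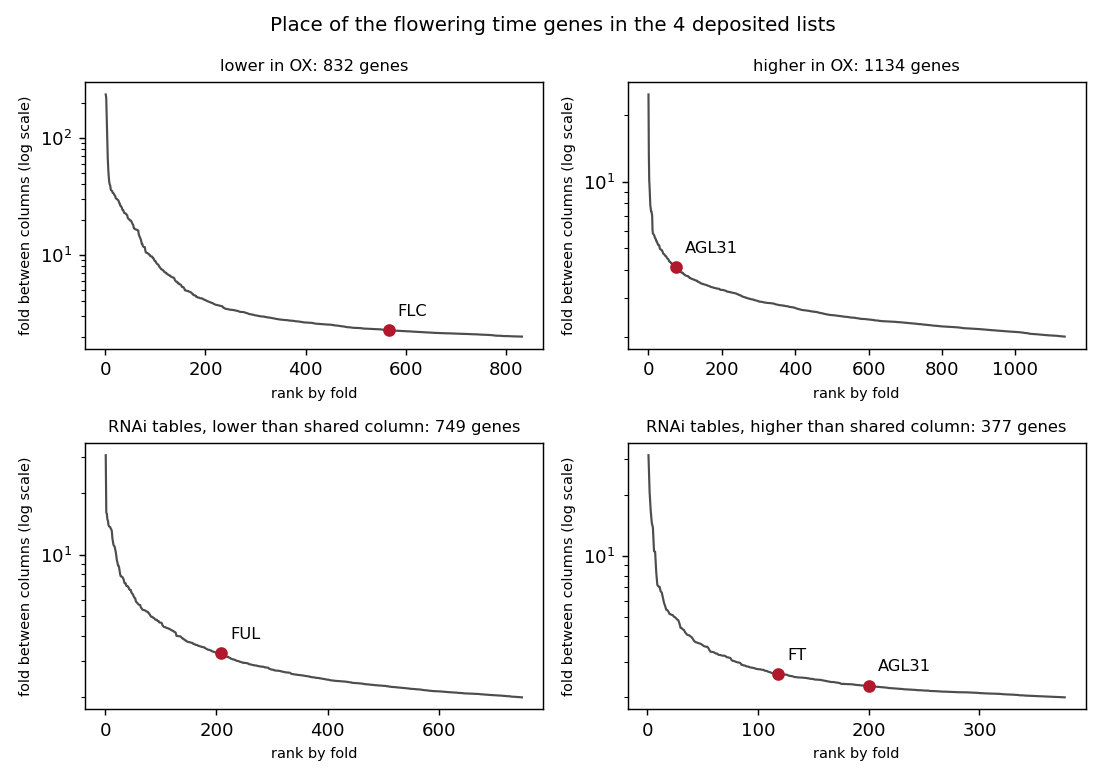
Fold between the 2 columns (log axis) of every gene of each deposited list, ordered by rank, with the flowering time genes in red. AGL31 ranks 75 of 1134 genes higher in OX, while FLC ranks 566 of 832 genes lower in OX.

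In the shared column the levels were ordered FLC at 8.62, AGL31 at 4.0 and 3.81, FT at 0.674 and FUL at 0.535 FPKM. With no spread over libraries, it cannot be said which neighbours in this order differ. The shared column also differed between the OX and RNAi lists, by a median log2 ratio of 0.08. In the first columns the order was AGL31 at 16.4 and FLC at 3.81 FPKM in OX, and AGL31 at 8.69, FT at 1.76 and FUL at 0.163 FPKM in the RNAi lists. FLC and AGL31 therefore changed places between OX and the shared column.

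A list of 103 genes of the flowering pathways showed more entries than the 4 members. In OX 11 of the 103 were listed, 2 lower and 9 higher (10.7%, against 6.39% of annotated nuclear protein-coding genes). Of all OX entries 57.7% were higher, and the median log2 ratio was 1.22 for the 11 genes and 1.08 for all entries. In the RNAi lists 8 of the 103 were listed, 3 lower and 5 higher than the shared column (7.77%, against 3.64%). The 103 include the 4 members, 2 of them listed in OX and 3 in the RNAi lists. All were chosen with earlier results of these data known, so part of both shares was fixed by that choice. Of all RNAi entries 33.5% were higher, and the median log2 ratio was 1.12 for the 8 genes and -1.13 for all entries. Genes under a 2-fold difference are absent, so the sign of such a median shows only which side holds more entries. These RNAi directions turn with the reading of the labels. By the list titles 5 of the 8 were lower and 3 higher in RNAi, with medians of -1.12 for the 8 genes and 1.13 for all entries. By the column labels all 8 were higher in RNAi, as were all entries (100%).

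Of genes that act on FLC, 2 of 16 FRIGIDA complex genes and other regulators and 1 of 9 in the autonomous pathway were higher in OX. Together these are 3 of 25 or 12%, against 3.8% of annotated nuclear protein-coding genes. Leaving out PIE1, whose locus covers a second gene, 2 of them remain, too few to describe the group by. PIE1, the ATPase of the SWR1 complex that deposits the histone variant H2A.Z and is needed for FLC expression, had 4.08 FPKM in OX and 1.93 FPKM in the shared column, 2.11-fold higher (q-value 0.00015 in the authors' deposited table). Its deposited locus is 9037 bp long. VIP4, a subunit of the PAF1 complex needed for FLC expression, had 17.9 FPKM in OX and 7.69 FPKM in the shared column, 2.33-fold higher. LD, an autonomous pathway gene that lowers FLC, had 6.15 FPKM in OX and 2.90 FPKM in the shared column, 2.12-fold higher. FRI itself was in no list. The vernalization and Polycomb genes, which are not among these 25, were in no list either (0 of 7). With 8.31% of annotated nuclear protein-coding genes in at least 1 list, a count of 0 does not set so small a group apart.

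Of the age pathway, which runs through SPL transcription factors that promote flowering, SPL3 and SPL4 were higher in OX. SPL4 had 6.82 FPKM in OX and 2.93 FPKM in the shared column, 2.33-fold higher, and SPL3 had 4.37 FPKM in OX and 1.83 FPKM in the shared column, 2.39-fold higher (q-values 0.00015 and 0.00029 in the authors' deposited table). These are short genes, of 1190 and 1072 bp, in a list whose median span was 3234 bp. In the RNAi list another SPL gene, SPL15, had 0.203 FPKM in the first column and 0.526 FPKM in the shared column, 2.58-fold lower (q-value 0.025), in a locus that also covers part of a second gene.

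Relatives of FT were listed too. ATC, a member of the FT and TFL1 family that represses flowering and is written CEN in the files, had 1.62 FPKM in the first column of the RNAi list and 0.432 FPKM in the shared column, 3.74-fold higher (q-value 0.0026 in the authors' deposited table). ATC and FT, which act in opposite ways on flowering, were thus on the same side of the shared column. MFT, a family member known from seed germination, had 0.997 FPKM in OX and 0.477 FPKM in the shared column, 2.09-fold higher (q-value 0.031), in a locus that covers 2 genes. TSF, TFL1, BFT, FD and FDP were in no list.

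Of the 12 integrators and meristem identity genes, which include FUL, AGL19 was listed in OX. AGL19, a MADS-domain activator of flowering, had 0.887 FPKM in OX and 0.228 FPKM in the shared column, 3.90-fold higher with a q-value of 0.045 in the authors' deposited table. Of the OX higher list 86.3% had a higher level than AGL19, so its fold rests on low values. SOC1, LFY, AP1 and AGL24 were in no list. RGL2, a DELLA repressor of gibberellin signalling, had 0.336 FPKM in the first column of the RNAi list and 0.677 FPKM in the shared column, 2.01-fold lower (q-value 0.0047). This fold rests on low values too, since 93.9% of that list had a higher level. The 15 photoperiod and light genes, among them CO and GI, and the 8 AP2-like and TEM repressors of FT had 0 listed members in either comparison. Of annotated nuclear protein-coding genes 6.39% were listed in OX and 3.64% in the RNAi lists, so a count of 0 does not set groups this small apart.

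PI, which with AP3 specifies petals and stamens, was the only floral organ identity gene of 7 to be listed. It had 3.21 FPKM in OX and 10.5 FPKM in the shared column, 3.26-fold lower (q-value 0.00015 in the authors' deposited table). In the RNAi list it had 22.6 FPKM in the first column and 9.80 FPKM in the shared column, 2.3-fold higher (q-value 0.0002). Of the 5 flower markers AP1, AP3, PI, AG and SEP3, PI was the 1 found in a list. Of 585 pairs of entries found in both comparisons, 12, or 2.05%, stood on opposite sides of the shared column, PI among them, while AGL31 and MAF3 stood on the same side. Both ratios of a pair are over the same column, and only genes past the 2-fold limit in both comparisons are counted. This share therefore does not measure how alike the 2 lines are. With the RNAi directions turned by the list titles and the OX directions kept, 573 of the 585 pairs would be opposite. PI would be among the 12 that go the same way. The titles would make the shared column RNAi, however, and the OX ratios are over that column too. These counts therefore do not compare each line with wild type.

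**Figure D4:**
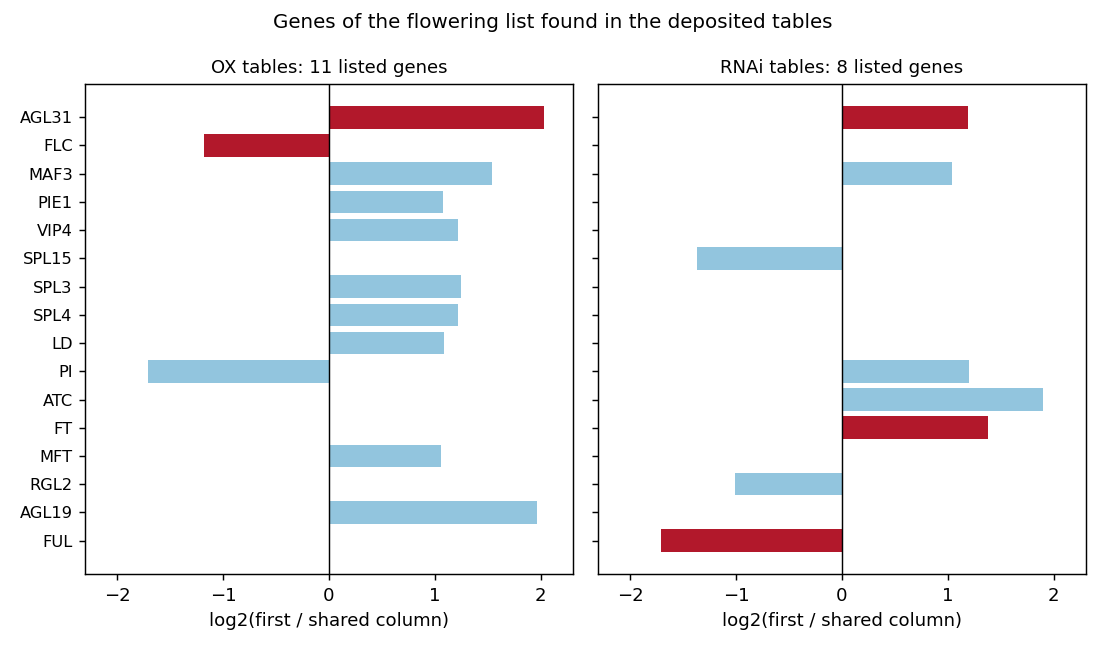
log2 ratio of the first over the shared column for each gene of the flowering list found in the OX lists (left) and the RNAi lists (right), with FLC, AGL31, FT and FUL in red. In OX 9 of 11 bars point to higher levels, and PI points in opposite directions in the 2 panels.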

How the data were processed

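RNA was sequenced from TruSeq libraries of total RNA, and the submitters' processing notes name TopHat2 2.1.1, Cufflinks 2.2.1, Cuffdiff and TAIR10, with no role or order. The authors deposited 4 lists with 1 FPKM value per group, in the column layout of Cuffdiff, per the file headers. The deposited log2 column is the second over the first value, within 0.001 in all of 3092 entries but that of SRT1 in the RNAi lists. The deposited fold column is a ratio in 2 lists and a score with a minus sign in the others, and was not used. The deposited p-value and q-value columns are the authors'. Folds here are ratios of the FPKM values with no pseudocount.

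The members, the 103 flowering genes and the neighbours were chosen with earlier results of these data known. The named genes were the 4 members, listed flowering genes, SRT1, the 3 annotated genes on each side of a member and the 3 genes most like AGL31. Planned limma tests could not be run without values per library. Names, neighbours and sequences are from RefSeq TAIR10.1. Of 2929 nuclear entries 2922 matched it by identifier and 2921 of them overlapped the annotated gene. All 103 flowering genes matched. Motif search and distances, in Python 3.11.15, were tested on simulated data.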

Additional observations from a re-analysis of the deposited data

Results flagged for a closer look

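PI was picked out because its values went in opposite directions in the 2 lines, with a log2 ratio of -1.71 in OX and 1.2 in the RNAi list, both over the shared column. This difference was not tested. The title of the RNAi list calls PI lower in RNAi, and with the OX direction kept both would be lower. That title would make the shared column RNAi, however, so the OX ratio would not be over wild type. The 2 lines cannot be compared under that reading.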

How the results depend on the processing

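No paired analysis was possible because the lists hold 1 value per group, and for the same reason no library could be left out. The direction of the RNAi entries depends on the reading of the labels. By the list titles AGL31 would be -1.19, FT -1.38 and FUL 1.71 on the log2 scale, and by the column labels FUL would be 1.71 while AGL31 and FT keep their sign. The flowering genes in the RNAi lists would number 5 lower and 3 higher by the titles, and 0 lower and 8 higher by the labels, readings added for these counts after seeing the data. With a pseudocount of 1 FPKM, FT was 0.72 and FUL -0.40, under the 2-fold limit. With a log2 limit of 1.5, the flowering genes numbered 1 lower and 3 higher in OX, and 1 lower and 1 higher in the RNAi lists. With at least 1 FPKM in the higher group 0 lower genes were left in the RNAi lists, and with a q-value of at most 0.01 there was 1. The other 25 of 41 alternatives, among them leaving out loci that cover a second gene, an alternative chosen after seeing the data, gave the same direction on the same side of the 2-fold limit, or a count within 1.5 times the first. Some of these 25 could not differ, namely the log2 ratios as deposited and the column-label reading of AGL31 and FT. FLC with a pseudocount of 1 FPKM was -1.0, at the 2-fold limit. Depth is unknown, so the precision of FT and FUL, at under 2 FPKM, cannot be given.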
